A study of Mus musculus with 6 samples.

Results

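The expression of 34 genes of the vascular endothelium was examined in tumors of a mouse synovial sarcoma model. They comprise the receptors for vascular endothelial growth factor (VEGF), the Tie receptors with both angiopoietins, junction and adhesion proteins of endothelial cells, endothelial transcription factors, and markers of blood and lymphatic vessels. The genes were chosen by name, as known endothelial genes, with earlier results of these data known. No measured value entered the rule, and all 34 were among the 17312 genes of the deposited table. Of these, 32 reached an FPKM (fragments per kilobase of transcript, scaled to the size of the library) of at least 1 in at least 3 tumors and were tested. Mmrn1 and Lyve1, both used as lymphatic markers, did not.

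Synovial sarcoma is a soft-tissue tumor driven by a fusion of SS18 with one of the SSX genes. One genotype carried an SS18-SSX2 allele that is switched on by Cre recombinase (3 tumors), and the other carried an SS18-SSX1 allele switched on in the same way (3 tumors). All 6 were leg tumors started by local injection of TATCre, a cell-permeable Cre protein that is not restricted to a cell type, and were harvested about 1 year later with no other treatment. No normal tissue was analysed here, so every comparison is between tumors. The labels number the tumors within a genotype without stating whether each came from its own mouse, so the p-values measure the spread between these tumors only. Values of a genotype are given for tumors 1, 2 and 3 in turn.

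The endothelium lines all vessels, and a growing tumor is supplied by vessels that sprout from those of the host. VEGF binds the receptor tyrosine kinases Kdr, Flt1 and Flt4 and drives sprouting. Angiopoietins act on the receptor Tek to steady or loosen the vessel wall, and transcription factors of the ETS and SoxF families keep the endothelial program on. Whole tumor tissue was measured, so fewer endothelial cells and less RNA per endothelial cell cannot be told apart.

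Read totals worked out from the steps between low FPKM values were 14529865, 7285853 and 14357641 reads in SS18-SSX2 tumors 1, 2 and 3, against 13316377, 13767913 and 17546245 reads in SS18-SSX1 tumors 1, 2 and 3. SS18-SSX2 tumor 2 was the shallowest library. In it, 1 read on a transcript of 1 kilobase equals 0.137 FPKM, against 0.0570 to 0.0751 FPKM in the other 5. Single synovial sarcoma markers differed widely: Epcam ran from 7.96 to 103.8 FPKM and Cdh11 from 10.1 to 132.4 FPKM. Tle1 kept to 23.3 to 37.0 FPKM. Genotypes did not overlap in 2 of these markers with SS18-SSX2 higher and in 2 with it lower. Opposite moves can cancel in a mean, which therefore cannot show whether tumor cell content was steady. The mean log2(FPKM + 1) of 10 synovial sarcoma marker genes in the table stayed between 3.70 and 4.03 in all 6 tumors. That of 20 skeletal muscle fibre genes was 2.43, 7.04 and 2.56 in the SS18-SSX2 tumors, against 3.46, 8.22 and 3.70 in the SS18-SSX1 tumors, so tumor 2 of each genotype carried far more muscle RNA than the other 4 tumors.

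The members varied mainly from tumor to tumor. The median member spanned 1.87 log2 units over the 6 tumors, against 1.08 for the median of all 13873 tested genes, and its SD within a genotype was 0.76 log2 units, against 0.41. A core of 10 genes found in all kinds of endothelium (Pecam1, Cdh5, Tie1, Esam, Erg, Robo4, Clec14a, Ecscr, Egfl7 and Mmrn2) summed to 128, 52.2 and 127 FPKM in SS18-SSX2 tumors 1, 2 and 3, against 124, 30.6 and 76.8 FPKM in SS18-SSX1 tumors 1, 2 and 3. Tumor 2 of both genotypes therefore had the lowest core levels. They were the 2 lowest of the 6 for 20 of the 34 members and for 6 of the 10 core genes. SS18-SSX1 tumor 2 alone held the lowest value of 21 members.

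**Figure D1:**
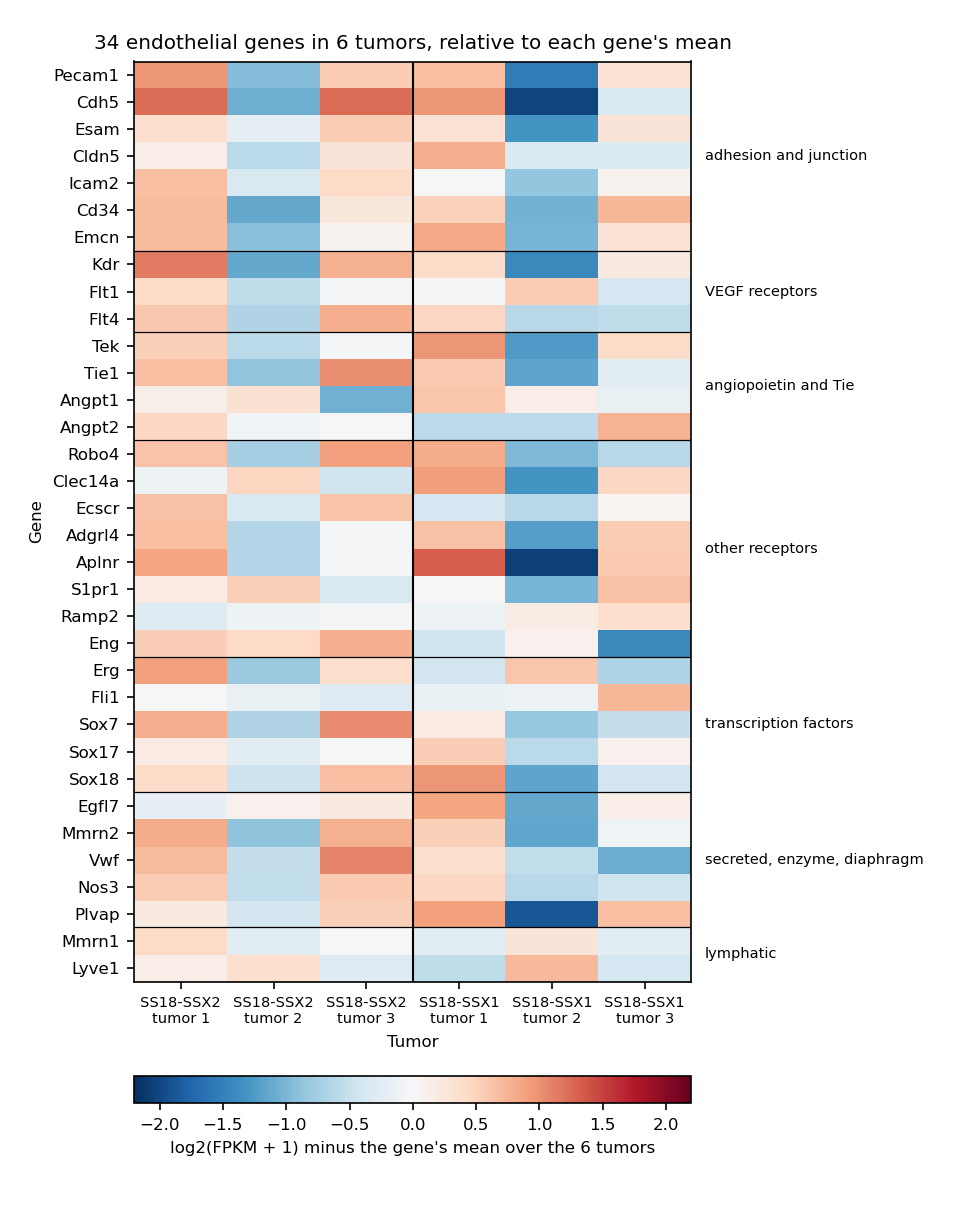
Level of each of the 34 genes (rows) in each of the 6 tumors (columns, SS18-SSX2 left of SS18-SSX1), as log2(FPKM + 1) minus that gene's mean over the 6 tumors. Most rows are lowest in tumor 2 of each genotype, with SS18-SSX1 tumor 2 holding the lowest value of 21 genes, while Flt1 and Lyve1 are highest there.

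Muscle RNA was highest in tumor 2 within each genotype, and its part in the low endothelial levels was not tested. The muscle enzyme gene Ckm was at 7.88, 556 and 12.0 FPKM in the SS18-SSX2 tumors, against 32.4, 1285 and 69.9 FPKM in the SS18-SSX1 tumors. Macrophage and monocyte genes had a mean log2(FPKM + 1) of 3.09, 4.73 and 3.01 in the SS18-SSX2 tumors, against 2.07, 4.14 and 4.30 in the SS18-SSX1 tumors, and adipocyte genes one of 0.69, 2.47 and 0.26 in the SS18-SSX2 tumors, against 0.25, 1.71 and 1.21 in the SS18-SSX1 tumors. The summed FPKM of the adipocyte genes was 4.76, 57.8 and 1.63 in the SS18-SSX2 tumors, against 1.61, 22.9 and 73.7 in the SS18-SSX1 tumors. Macrophage and monocyte genes were thus high in SS18-SSX1 tumor 3 as well. Its core sum of 76.8 FPKM lay between those of tumors 1 and 2 of that genotype. The adipocyte sum of this tumor came almost wholly from Fabp4, at 71.7 FPKM, a gene that the capillary list also holds. Cfd, another adipocyte gene, reached only 0.803 FPKM there, less than its 9.05 in SS18-SSX1 tumor 2 or 20.97 in SS18-SSX2 tumor 2. Pericyte and smooth muscle genes, which mark the cells around vessels, did not drop with the core: their means were 3.65, 3.58 and 3.58 in the SS18-SSX2 tumors, against 2.96, 3.15 and 2.78 in the SS18-SSX1 tumors. Within that list the pericyte marker Rgs5 was lowest in tumor 2 of both genotypes, at 78.0, 20.3 and 36.1 FPKM in the SS18-SSX2 tumors, against 59.0, 9.93 and 32.9 FPKM in the SS18-SSX1 tumors, while the list also holds genes that muscle fibres use, such as Des.

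**Figure D2:**
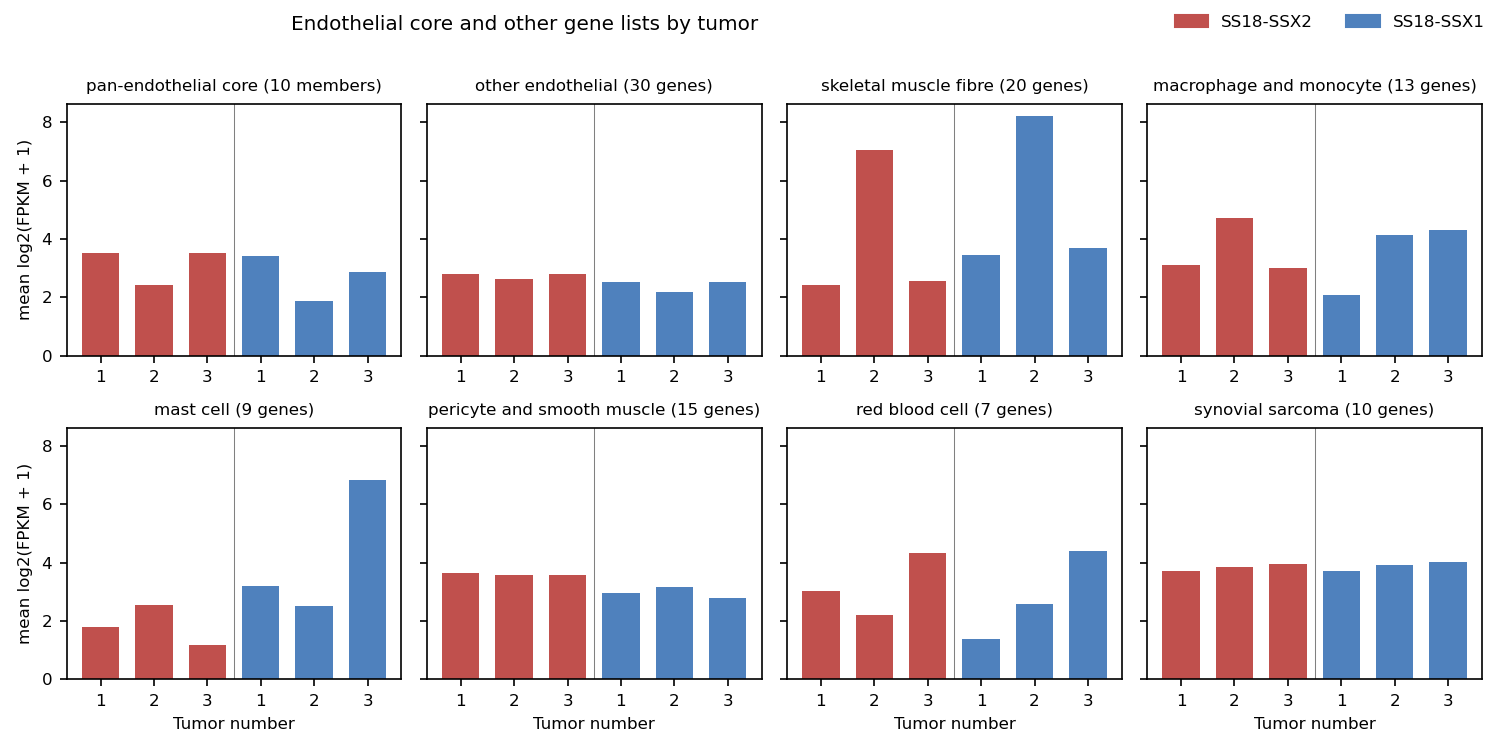
Mean log2(FPKM + 1) of the pan-endothelial core and of marker lists of other cell types in each tumor, SS18-SSX2 tumors before SS18-SSX1 tumors. The core is lowest in tumor 2 of both genotypes (2.41 and 1.88), where the skeletal muscle fibre list is highest (7.04 and 8.22).

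Cdh5, Pecam1 and Esam are junction and adhesion genes that are themselves in the core. Their likeness to its tumor order is therefore in part built in. Cdh5 (ENSMUSG00000031871, chromosome 8, 104101625 to 104144511, GRCm38), which encodes VE-cadherin of endothelial adherens junctions, was at 32.7, 5.78 and 32.4 FPKM in the SS18-SSX2 tumors, against 27.1, 2.55 and 10.4 FPKM in the SS18-SSX1 tumors. Pecam1, the adhesion molecule CD31, was at 26.5, 6.27 and 19.8 FPKM in the SS18-SSX2 tumors, against 21.3, 3.82 and 16.4 FPKM in the SS18-SSX1 tumors. The highest and the lowest tumor differed 12.8-fold in Cdh5 and 6.95-fold in Pecam1, and in both the genotypes overlapped, with tumor 2 low in each. Esam, another junction adhesion molecule, ranged over 3.17 to 14.1 FPKM and Icam2, which binds leukocyte integrins, over 0.610 to 3.58 FPKM, both with SS18-SSX1 tumor 2 lowest. Cldn5, the claudin of endothelial tight junctions, was at 10.7, 6.02 and 11.9 FPKM in the SS18-SSX2 tumors, against 17.4, 7.55 and 7.66 FPKM in the SS18-SSX1 tumors. It was highest in SS18-SSX1 tumor 1, and SS18-SSX1 tumors 2 and 3 lay close together between the values of SS18-SSX2 tumors 1 and 2.

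The surface sialoglycoproteins of vessels were likewise low in tumor 2 of both genotypes. Cd34 was the member with the highest mean level, 24.7 FPKM over the 6 tumors, and was at 35.6, 9.32 and 25.9 FPKM in the SS18-SSX2 tumors, against 31.2, 9.98 and 36.4 FPKM in the SS18-SSX1 tumors. It is also a marker of fibroblasts. The fibroblast list, which includes Cd34, summed to 1540, 1500 and 2250 FPKM in the SS18-SSX2 tumors, against 441, 3300 and 637 FPKM in the SS18-SSX1 tumors, and its part in the Cd34 values was not tested. By this sum, tumor 2 was lowest among SS18-SSX2 tumors, though close to tumor 1, and highest among SS18-SSX1 tumors. By mean log2(FPKM + 1) the list was at 5.62, 5.71 and 5.54 in the SS18-SSX2 tumors, against 3.67, 6.03 and 5.22 in the SS18-SSX1 tumors. On that measure tumor 2 was the highest of each genotype. Emcn, an anti-adhesive sialomucin of capillaries and veins, was at 4.19, 0.685 and 2.38 FPKM in the SS18-SSX2 tumors, against 4.72, 0.577 and 3.00 FPKM in the SS18-SSX1 tumors. Tumors 1 and 3 exceeded tumor 2 within each genotype for both genes.

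The VEGF receptors diverged. Kdr (ENSMUSG00000062960, chromosome 5, 75932827 to 75978458), the main signalling receptor for VEGF-A, was at 12.5, 1.79 and 9.44 FPKM in the SS18-SSX2 tumors, against 7.08, 1.28 and 5.97 FPKM in the SS18-SSX1 tumors. Flt1 (ENSMUSG00000029648, chromosome 5, 147561604 to 147726011), which binds VEGF-A tightly and limits its access to Kdr, was at 10.7, 4.85 and 7.34 FPKM in the SS18-SSX2 tumors, against 7.44, 11.6 and 5.61 FPKM in the SS18-SSX1 tumors. Kdr thus followed the core and was lowest in SS18-SSX1 tumor 2, whereas Flt1 was highest in that tumor. The Flt1 to Kdr ratio of FPKM was 0.853, 2.71 and 0.778 in the SS18-SSX2 tumors, against 1.05, 9.11 and 0.941 in the SS18-SSX1 tumors, near or below 1 in 4 tumors and above it in tumor 2 of both genotypes. Flt4, the receptor for VEGF-C of lymphatic and sprouting endothelium, was at 2.42, 0.433 and 2.94 FPKM in the SS18-SSX2 tumors, against 2.10, 0.476 and 0.540 FPKM in the SS18-SSX1 tumors. SS18-SSX1 tumor 3 was low in Flt4 together with both tumors numbered 2, and its Flt4 to Kdr ratio of 0.0905 was the lowest of the 6, against 0.193 to 0.373 in the others.

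The ligand Vegfa itself varied little, at 26.9, 25.4 and 38.1 FPKM in the SS18-SSX2 tumors, against 35.1, 35.3 and 26.1 FPKM in the SS18-SSX1 tumors. Its co-receptor Nrp2 was at 79.2, 25.7 and 73.5 FPKM in the SS18-SSX2 tumors, against 34.2, 25.0 and 40.1 FPKM in the SS18-SSX1 tumors, with a fold change that did not pass the test (a log2 fold change of 0.70 with SE 0.45 and adjusted p = 0.997). Placental growth factor, Pgf, which binds Flt1 and not Kdr, was at 3.57, 4.42 and 6.03 FPKM in the SS18-SSX2 tumors, against 0.902, 2.07 and 0.648 FPKM in the SS18-SSX1 tumors. Its genotypes did not overlap, but the limma fit gave a log2 fold change of 1.39 with SE 0.35 and adjusted p = 0.578. Of 19 tested genes of the VEGF, angiopoietin, Notch and ephrin systems outside the members, 14 had a positive and 5 a negative fold change with a median of 0.26. The limma fit called none of them, and 2 had an unadjusted p under 0.05, against 689 of all 13873 tested genes.

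**Figure D3:**
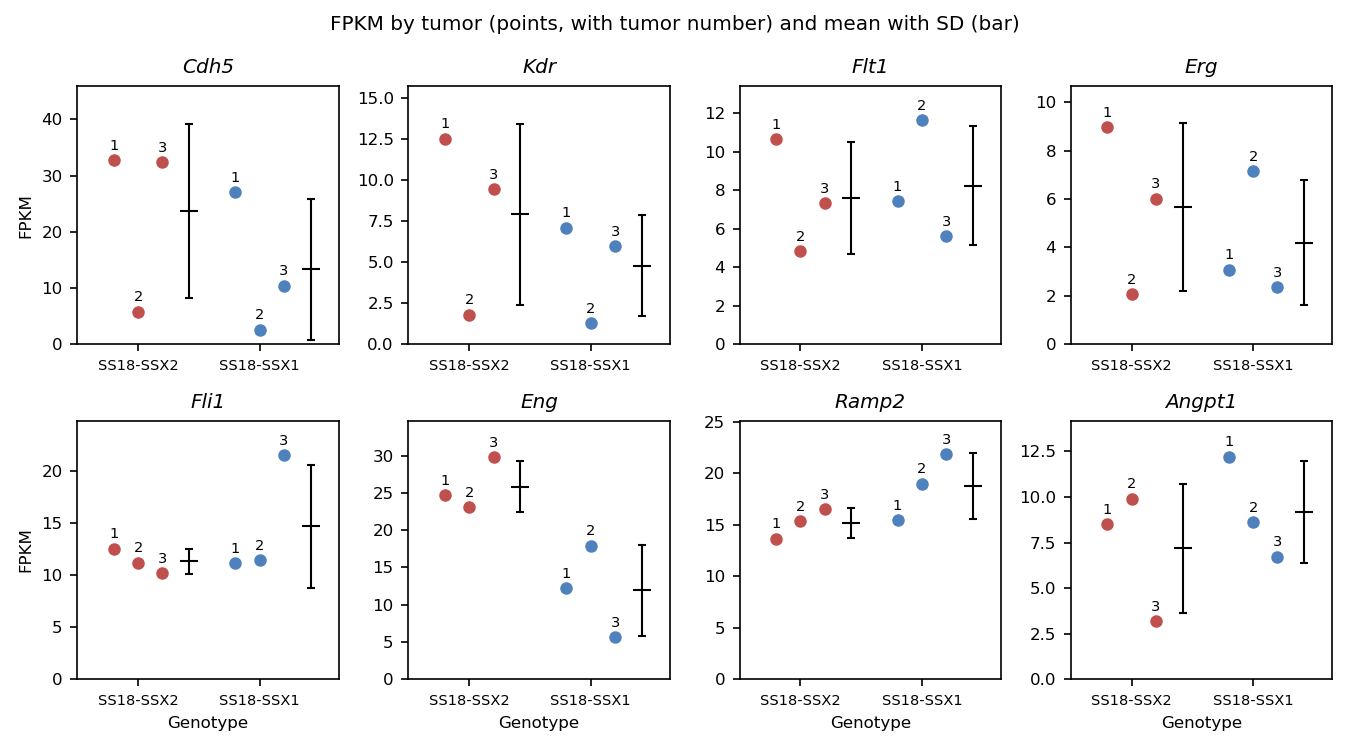
FPKM of 8 of the genes in each tumor (points, numbered by tumor), with the mean and SD of each genotype (bars, n = 3 each), SS18-SSX2 left of SS18-SSX1. Cdh5 and Kdr are low in both tumors numbered 2, Flt1 and Erg are highest among SS18-SSX1 tumors in tumor 2, and only Eng shows no overlap between the genotypes among these 8 genes.

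In the angiopoietin system, both receptors were low in tumor 2 of each genotype and the ligands varied in other ways. Tek, the angiopoietin receptor, was at 4.25, 1.43 and 2.56 FPKM in the SS18-SSX2 tumors, against 6.17, 0.540 and 3.82 FPKM in the SS18-SSX1 tumors. Tie1, its partner receptor, which binds no angiopoietin on its own, was at 9.93, 2.80 and 13.2 FPKM in the SS18-SSX2 tumors, against 9.37, 2.12 and 4.90 FPKM in the SS18-SSX1 tumors. Both were lowest in SS18-SSX1 tumor 2, but Tek was highest in SS18-SSX1 tumor 1 and Tie1 in SS18-SSX2 tumor 3. Their Tie1 to Tek ratio ran from 1.28 to 5.15 over the 6 tumors and overlapped between the genotypes. Angpt1, the Tek agonist made mostly by cells around the vessel, was at 8.49, 9.90 and 3.17 FPKM in the SS18-SSX2 tumors, against 12.2, 8.62 and 6.71 FPKM in the SS18-SSX1 tumors. Angpt2, which endothelial cells release and which can block Tek, was at 4.29, 2.72 and 2.89 FPKM in the SS18-SSX2 tumors, against 1.59, 1.61 and 5.56 FPKM in the SS18-SSX1 tumors. For neither ligand was a tumor numbered 2 the lowest of the 6: the lowest Angpt1 value was in SS18-SSX2 tumor 3 and the lowest Angpt2 value in SS18-SSX1 tumor 1. For Angpt2, however, tumor 2 was the lowest SS18-SSX2 tumor, and SS18-SSX1 tumors 1 and 2 were nearly equal. The Angpt2 to Angpt1 ratio was 0.505, 0.274 and 0.910 in the SS18-SSX2 tumors, against 0.130, 0.187 and 0.829 in the SS18-SSX1 tumors, below 1 in all 6 tumors and highest in tumor 3 of each genotype.

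Among the other receptors, Robo4, a guidance receptor that steadies vessels, was at 6.77, 2.04 and 8.46 FPKM in the SS18-SSX2 tumors, against 7.90, 1.54 and 2.30 FPKM in the SS18-SSX1 tumors. Aplnr, the apelin receptor of veins and sprouts, was at 10.3, 2.93 and 4.97 FPKM in the SS18-SSX2 tumors, against 14.2, 0.489 and 8.14 FPKM in the SS18-SSX1 tumors. Its lowest value, in SS18-SSX1 tumor 2, lay 29.1-fold below its highest, in SS18-SSX1 tumor 1, the widest span among the tested members. The lowest value rests on 24 reads. Adgrl4, an adhesion G protein-coupled receptor of endothelium, ranged over 1.57 to 8.45 FPKM in the same order as Aplnr within SS18-SSX1 tumors. Ecscr, a small endothelial surface protein that influences migration, was at 6.14, 2.61 and 6.05 FPKM in the SS18-SSX2 tumors, against 2.50, 1.99 and 3.66 FPKM in the SS18-SSX1 tumors. Its fold change did not pass the test (a log2 fold change of 0.63 with SE 0.37 and adjusted p = 0.997).

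Clec14a, a surface lectin-like protein of endothelium, and S1pr1, the sphingosine 1-phosphate receptor, were low in tumor 2 of one genotype and high in tumor 2 of the other. Clec14a was at 3.55, 5.87 and 2.65 FPKM in the SS18-SSX2 tumors, against 8.31, 0.992 and 5.78 FPKM in the SS18-SSX1 tumors, and S1pr1 was at 7.32, 9.61 and 4.78 FPKM in the SS18-SSX2 tumors, against 6.37, 2.61 and 10.5 FPKM in the SS18-SSX1 tumors. In both, tumor 2 was the highest SS18-SSX2 tumor and the lowest SS18-SSX1 tumor. S1pr1 is also expressed by lymphocytes; the leukocyte list had a mean log2(FPKM + 1) of 1.73, 3.32 and 1.49 in the SS18-SSX2 tumors, against 1.35, 2.60 and 3.17 in the SS18-SSX1 tumors, and its part in the S1pr1 values was not tested.

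Ramp2, which pairs with Calcrl to form an adrenomedullin receptor, was the steadiest member, at 13.6, 15.3 and 16.5 FPKM in the SS18-SSX2 tumors, against 15.4, 19.0 and 21.9 FPKM in the SS18-SSX1 tumors. Its highest and lowest tumors differed 1.60-fold. In the annotation (GENCODE mouse release 21 on GRCm38) an exon of Ramp2 overlaps Vps25 on the same strand, a widely used gene that was at 21.5, 25.8 and 26.6 FPKM in the SS18-SSX2 tumors, against 23.2, 34.4 and 36.8 FPKM in the SS18-SSX1 tumors. Both genes were lowest in SS18-SSX2 tumor 1 and highest in SS18-SSX1 tumor 3, so the share of Ramp2 reads that came from Vps25 is uncertain. Of the other 33 members, 7 also have an exon that overlaps another annotated gene: Egfl7, Sox17, Eng, Nos3, Cd34, Ecscr and Angpt1.

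Endoglin, Eng (ENSMUSG00000026814, chromosome 2, 32646595 to 32682669), a co-receptor for transforming growth factor β and bone morphogenetic proteins, was the member with the clearest difference between the genotypes. It was at 24.7, 23.1 and 29.7 FPKM in the SS18-SSX2 tumors, against 12.2, 17.9 and 5.64 FPKM in the SS18-SSX1 tumors. All 3 SS18-SSX2 tumors were above all 3 SS18-SSX1 tumors, with means of 25.9 ± 3.47 FPKM in SS18-SSX2 tumors and 11.9 ± 6.14 FPKM in SS18-SSX1 tumors (SD, n = 3 each). The limma test gave a log2 fold change of 1.17 with SE 0.39 and adjusted p = 0.809 after Benjamini-Hochberg adjustment, with a 95% confidence interval of 0.27 to 2.08, so Eng was not called. Genotypes that do not overlap, with the SS18-SSX2 tumors higher, were found in 4.97% of all tested genes and in 1 member, and with the SS18-SSX2 tumors lower in 3.76% of all tested genes and in 0 members.

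Eng did not follow the core: its SS18-SSX2 tumors lay within 23.1 to 29.7 FPKM while core sums there ran from 52.2 to 128 FPKM. The Eng to Cdh5 ratio was 0.755, 3.99 and 0.917 in the SS18-SSX2 tumors, against 0.450, 7.02 and 0.541 in the SS18-SSX1 tumors, high in tumor 2 of both genotypes. Stromal cells other than endothelium also express Eng. The pericyte and smooth muscle list, whose means are given above, had a higher mean in every SS18-SSX2 tumor than in any SS18-SSX1 tumor. Its summed FPKM overlapped, at 282, 342 and 253 in the SS18-SSX2 tumors, against 173, 342 and 155 in the SS18-SSX1 tumors. Des, a gene that muscle fibres also use, made up 140 and 202 FPKM of the sums in SS18-SSX2 tumor 2 and SS18-SSX1 tumor 2. In the other tumors Des was at 3.99 to 9.16 FPKM. Genotypes did not overlap, with SS18-SSX2 higher, in 3 of the 15 genes of this list, against 4.97% of all tested genes, while Rgs5 overlapped. The only gene called in this list, smooth muscle actin Acta2, was at 28.4, 19.96 and 22.4 FPKM in the SS18-SSX2 tumors, against 3.58, 5.10 and 3.58 FPKM in the SS18-SSX1 tumors (a log2 fold change of 2.27 with SE 0.26 and adjusted p = 0.0474). The part of such cells in the Eng values was not tested. Fpgs, whose exons overlap Eng on the opposite strand, was at 8.36, 13.8 and 15.2 FPKM in the SS18-SSX2 tumors, against 9.34, 8.40 and 8.44 FPKM in the SS18-SSX1 tumors. Its mean was also higher in SS18-SSX2 tumors (12.4 against 8.73 FPKM). Fpgs and Eng were both highest in SS18-SSX2 tumor 3, but Fpgs was lowest in SS18-SSX2 tumor 1 and Eng in SS18-SSX1 tumor 3. The share of Eng reads that came from Fpgs was not tested. Acvrl1, the receptor that acts with Eng, stayed within 2.12 to 3.02 FPKM (chosen after its values were seen). The Y-linked gene Ddx3y was at 0.0148, 0 and 0 FPKM in the SS18-SSX2 tumors, against 35.1, 28.2 and 35.2 FPKM in the SS18-SSX1 tumors. The X-inactivation gene Xist was at 175, 56.3 and 77.5 FPKM in the SS18-SSX2 tumors, against 7.03, 3.73 and 3.58 FPKM in the SS18-SSX1 tumors. The limma fit called both (adjusted p = 0.000836 for Ddx3y and 0.0413 for Xist). The labels give no sex, so for Eng and every other gene the fusion allele and a difference of sex cannot be told apart.

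Of the 2 ETS family transcription factors of endothelium, neither followed the core throughout. Erg (ENSMUSG00000040732, chromosome 16, 95359169 to 95586593) was at 8.98, 2.06 and 6.01 FPKM in the SS18-SSX2 tumors, against 3.08, 7.15 and 2.35 FPKM in the SS18-SSX1 tumors. Fli1 was at 12.5, 11.2 and 10.2 FPKM in the SS18-SSX2 tumors, against 11.1, 11.4 and 21.5 FPKM in the SS18-SSX1 tumors. Erg was lowest in SS18-SSX2 tumor 2, yet in SS18-SSX1 tumor 2, where Cdh5 was lowest, it was the highest of its genotype. Its ratio to Cdh5 was 2.80 there, against 0.114 to 0.356 in the other 5 tumors. Fli1 stayed within a narrow range in 5 tumors and was highest in SS18-SSX1 tumor 3. Blood cells also express Fli1, and in that tumor mast cell genes had their highest mean log2(FPKM + 1), at 1.78, 2.53 and 1.16 in the SS18-SSX2 tumors, against 3.19, 2.50 and 6.82 in the SS18-SSX1 tumors. Their part in the Fli1 level was not tested.

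The SoxF factors, which act with ETS factors in arterial and lymphatic development, were also low in tumor 2. Sox7 was at 3.23, 0.541 and 4.03 FPKM in the SS18-SSX2 tumors, against 1.78, 0.374 and 0.709 FPKM in the SS18-SSX1 tumors. Sox17 was at 1.27, 0.696 and 1.02 FPKM in the SS18-SSX2 tumors, against 1.93, 0.322 and 1.14 FPKM in the SS18-SSX1 tumors. Sox18 was at 5.10, 2.37 and 6.28 FPKM in the SS18-SSX2 tumors, against 8.07, 1.08 and 2.46 FPKM in the SS18-SSX1 tumors. All 3 had tumor 2 lowest in each genotype, with SS18-SSX1 tumor 2 lowest of all. Reads were few at these levels: Sox7 and Sox17 rest on 13 and 16 reads in SS18-SSX2 tumor 2 and on 17 and 14 reads in SS18-SSX1 tumor 2.

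Because ETS factors bind a GGAA core that is common in endothelial promoters, the RefSeq promoter windows (GRCm38.p6, 250 bases before to 50 after the annotated start) were searched for CAGGAAG and CCGGAAG on both strands, neither of which contains the other. A window was given for 15 of the 34 members, 19 windows in all. A match was present in 6 of these 19 windows (31.6%), against 20.9% of 32851 windows of all genes, and all of them were CAGGAAG, which alone was in 13.3% of all windows. By gene, 5 of 15 members held a match (Cd34, Egfl7, Emcn, Erg and Robo4), or 33.3%, against 23.1% of 27025 genes. CCGGAAG was in none of the member windows and in 8.86% of all windows. A match is a string of letters and not a measured binding site.

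The windows of the 3 core genes with a match are shown 5′ to 3′ on the gene's strand, in lower case with the match in capitals (CAGGAAG, or CTTCCTG where it lies on the opposite strand), as examples of where the string falls.
Egfl7, chr2:26580833-26581132, plus strand: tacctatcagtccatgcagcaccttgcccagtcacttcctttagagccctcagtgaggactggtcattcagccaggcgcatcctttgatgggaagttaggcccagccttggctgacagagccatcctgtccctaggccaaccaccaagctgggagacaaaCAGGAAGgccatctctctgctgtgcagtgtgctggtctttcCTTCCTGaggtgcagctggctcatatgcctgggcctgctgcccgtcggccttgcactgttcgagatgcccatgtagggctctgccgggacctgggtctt
Erg, chr16:95459299-95459598, minus strand: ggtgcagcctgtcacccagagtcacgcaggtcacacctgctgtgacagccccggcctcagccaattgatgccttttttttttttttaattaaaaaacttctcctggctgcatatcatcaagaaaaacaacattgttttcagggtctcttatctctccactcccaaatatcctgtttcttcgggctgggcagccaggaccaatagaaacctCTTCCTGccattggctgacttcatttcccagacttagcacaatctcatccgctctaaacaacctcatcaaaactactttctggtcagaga
Robo4, chr9:37401722-37402021, plus strand: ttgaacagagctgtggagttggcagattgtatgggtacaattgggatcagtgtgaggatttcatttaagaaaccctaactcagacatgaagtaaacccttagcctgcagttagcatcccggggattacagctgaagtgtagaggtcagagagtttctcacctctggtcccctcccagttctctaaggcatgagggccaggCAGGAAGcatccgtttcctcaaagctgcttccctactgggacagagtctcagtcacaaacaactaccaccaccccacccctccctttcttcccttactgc
The Egfl7 window, 1 of 3 for that gene, holds a match on each strand, beginning at -90 and at -49 from the start. The Erg match begins at -40 and the Robo4 match at -50. In the tumors these 3 genes did not move as one: Egfl7 and Robo4 were lowest in SS18-SSX1 tumor 2, the tumor in which Erg was the highest of its genotype.

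Egfl7 encodes a secreted endothelial protein and hosts the microRNA miR-126. It was at 12.1, 14.8 and 16.0 FPKM in the SS18-SSX2 tumors, against 26.1, 5.78 and 15.4 FPKM in the SS18-SSX1 tumors. Tumor 2 was the lowest SS18-SSX1 tumor, but the SS18-SSX2 tumors lay close together with tumor 1 lowest. Its exons overlap the annotated gene Gm20532 on the same strand and Agpat2 on the opposite strand, so its reads may be split among them. Mmrn2, a matrix protein of the endothelial surface that binds Clec14a, is itself a core gene and kept closest to the core mean, with a difference from it that changed by 0.57 log2 units over the 6 tumors. Mmrn2 was at 8.68, 1.99 and 8.50 FPKM in the SS18-SSX2 tumors, against 6.89, 1.50 and 4.16 FPKM in the SS18-SSX1 tumors.

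Vwf, the clotting protein that endothelial cells store and release, was at 7.99, 2.88 and 10.8 FPKM in the SS18-SSX2 tumors, against 6.12, 2.79 and 1.62 FPKM in the SS18-SSX1 tumors. Its lowest tumor was SS18-SSX1 tumor 3. Plvap, which forms the diaphragms of fenestrated capillaries, was at 13.9, 8.92 and 17.9 FPKM in the SS18-SSX2 tumors, against 23.3, 2.56 and 19.7 FPKM in the SS18-SSX1 tumors. It was high in SS18-SSX1 tumors 1 and 3 and lowest in SS18-SSX1 tumor 2. Nos3, the endothelial nitric oxide synthase, ranged over 0.686 to 2.80 FPKM, with SS18-SSX2 tumors 1 and 3 and SS18-SSX1 tumor 1 high and the other 3 tumors low.

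Mmrn1 and Lyve1 were scarce. Mmrn1 was at 0.633, 0.0234 and 0.202 FPKM in the SS18-SSX2 tumors, against 0.0128, 0.458 and 0.0291 FPKM in the SS18-SSX1 tumors, from 54, 1 and 17 reads in SS18-SSX2 tumors 1, 2 and 3, against 1, 37 and 3 reads in SS18-SSX1 tumors 1, 2 and 3. Lyve1, a hyaluronan receptor of lymphatic endothelium and some macrophages, was at 0.634, 0.895 and 0.214 FPKM in the SS18-SSX2 tumors, against 0, 1.42 and 0.131 FPKM in the SS18-SSX1 tumors. It had 0 reads in SS18-SSX1 tumor 1, which allows up to 3 reads or 0.0864 FPKM by counting error alone, and was highest in SS18-SSX1 tumor 2. Some other genes of the lymphatic list were abundant. Prox1, the transcription factor that sets lymphatic identity, was at 24.4, 8.90 and 19.6 FPKM in the SS18-SSX2 tumors, against 16.9, 12.3 and 11.9 FPKM in the SS18-SSX1 tumors. Pdpn, the mucin-like surface protein podoplanin, was within 15.3 to 34.3 FPKM, and Reln, the secreted protein reelin, within 67.1 to 139 FPKM. Cells other than lymphatic endothelium also express these 3 genes.

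Between the genotypes, no member was called. At an adjusted p under 0.05 the limma fit called 0 of the 32 tested members and 9 of all 13873 genes, or 0.0649%. At an unadjusted p under 0.05, 1 member (Eng) and 689 of all genes passed. The fold change was positive, higher in SS18-SSX2 tumors, for 22 members and negative for 10, or 68.8% positive against 51.1% of all tested genes. The median member fold change was 0.29 on the log2 scale, against 0.01 for all tested genes. Without SS18-SSX1 tumor 2, the tumor lowest in most members, the member median was -0.07 and 14 of 32 members were positive. Without tumor 2 of both genotypes it was 0.20 with 18 positive. Without SS18-SSX2 tumor 2, SS18-SSX1 tumor 1 or SS18-SSX1 tumor 3 the median was 0.58, 0.62 and 0.34, with 28 positive in each case. Without SS18-SSX2 tumor 1 or 3 it was 0.14 and 0.19, with 19 and 23 positive.

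After Eng, the largest member fold changes were those of Cdh5, Vwf and Sox7. Cdh5 averaged 23.6 ± 15.5 FPKM in SS18-SSX2 tumors and 13.3 ± 12.5 FPKM in SS18-SSX1 tumors (SD, n = 3 each), with a log2 fold change of 0.92 with SE 0.86 and adjusted p = 0.997. For Cdh5 the 95% confidence interval ran from -1.07 to 2.90, which includes no difference and also large ones in either direction. Vwf averaged 7.23 ± 4.03 FPKM in SS18-SSX2 tumors and 3.51 ± 2.33 FPKM in SS18-SSX1 tumors (SD, n = 3 each), with a log2 fold change of 0.85 with SE 0.52 and adjusted p = 0.997. Sox7 averaged 2.60 ± 1.83 FPKM in SS18-SSX2 tumors and 0.953 ± 0.732 FPKM in SS18-SSX1 tumors (SD, n = 3 each), with a log2 fold change of 0.78 with SE 0.51 and adjusted p = 0.997. Among the VEGF receptors, Kdr averaged 7.91 ± 5.51 FPKM in SS18-SSX2 tumors and 4.77 ± 3.08 FPKM in SS18-SSX1 tumors (SD, n = 3 each), with a log2 fold change of 0.54 with SE 0.70 and adjusted p = 0.997. Flt1 averaged 7.61 ± 2.91 FPKM in SS18-SSX2 tumors and 8.23 ± 3.09 FPKM in SS18-SSX1 tumors (SD, n = 3 each), with a log2 fold change of -0.10 with SE 0.37 and adjusted p = 0.997. In each of these genes but Eng the genotypes overlapped. The most negative fold changes were those of Angpt1 (-0.39), Fli1 (-0.29) and Ramp2 (-0.28), none of which passed the test.

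**Figure D4:**
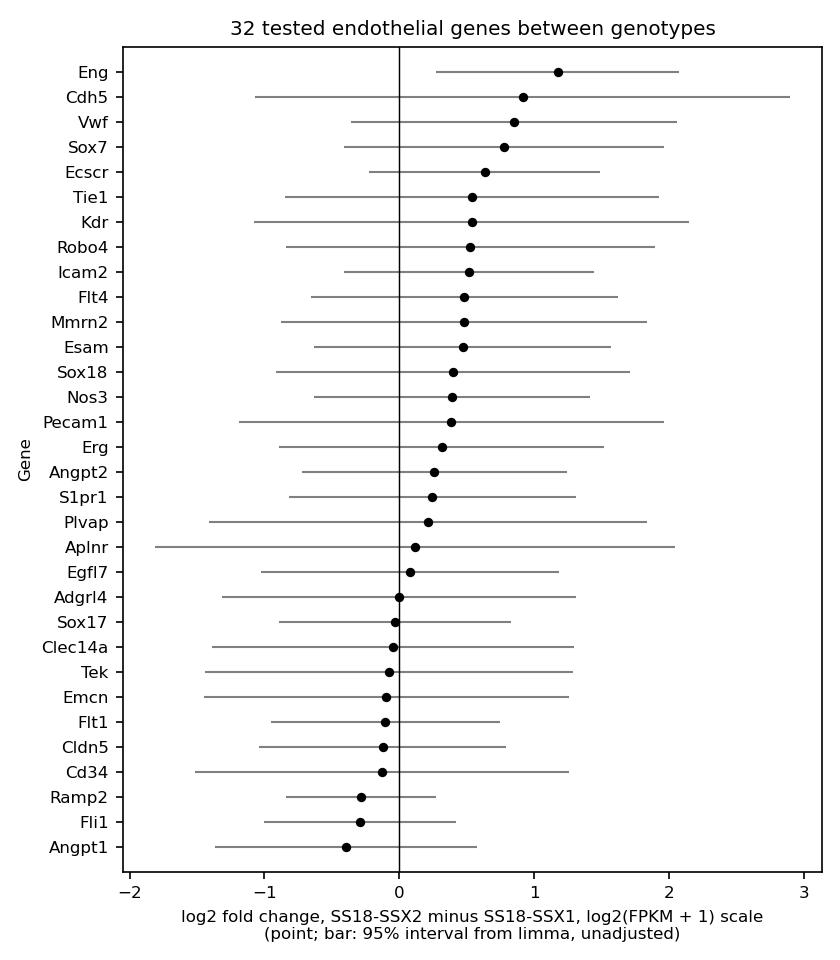
Log2 fold change (SS18-SSX2 minus SS18-SSX1, on log2(FPKM + 1)) of the 32 tested genes with 95% confidence intervals from the limma fit. The interval of Eng, 0.27 to 2.08, lies above 0, and no gene passed the adjusted threshold.

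Lists of other vessel genes were read in the same fit. They are not separate from the members or from each other: Sox17 is in the arterial list, Aplnr in the venous, Angpt2 and Plvap in the tip cell, and Flt4, Lyve1 and Mmrn1 in the lymphatic list, and some genes, Jag1 and Pgf among them, are in more than one list. Of 29 tested endothelial genes outside the members, 20 had a positive and 9 a negative fold change, with a median of 0.13 that ran from 0.04 to 0.44 with tumors left out and was 0.53 among genes with a mean FPKM of at least 5. The limma fit called none of them, and 1 had an unadjusted p under 0.05, against 689 of all 13873 tested genes. The gene with the smallest p among them, Palmd, an actin-associated protein, was at 24.2, 7.53 and 30.4 FPKM in the SS18-SSX2 tumors, against 2.15, 1.91 and 1.21 FPKM in the SS18-SSX1 tumors (a log2 fold change of 2.79 with SE 0.49 and adjusted p = 0.296). Arterial genes had 8 positive and 2 negative fold changes with a median of 0.73, with none called by limma and 2 at an unadjusted p under 0.05. Among them the Notch ligand Jag1 was at 52.4, 59.7 and 52.7 FPKM in the SS18-SSX2 tumors, against 40.2, 19.7 and 29.3 FPKM in the SS18-SSX1 tumors, with genotypes that did not overlap (a log2 fold change of 0.92 with SE 0.30 and adjusted p = 0.809). Jag1 was highest in SS18-SSX2 tumor 2, where the core sum was only 52.2 FPKM. The part of cells other than endothelium in these vessel lists was not tested. Genes of sprouting tip cells had 11 positive and 2 negative fold changes with a median of 0.36, with none called by limma and 3 at an unadjusted p under 0.05.

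In the tip cell list, Cxcr4, the chemokine receptor of migrating endothelium and of many leukocytes and tumor cells, was at 22.1, 10.4 and 19.1 FPKM in the SS18-SSX2 tumors, against 3.61, 5.83 and 6.37 FPKM in the SS18-SSX1 tumors. Its genotypes did not overlap, but the limma fit gave a log2 fold change of 1.51 with SE 0.35 and adjusted p = 0.52. Esm1, a secreted proteoglycan of tip cells, was at 9.71, 0.916 and 7.61 FPKM in the SS18-SSX2 tumors, against 0.179, 0.450 and 1.47 FPKM in the SS18-SSX1 tumors. It was high in SS18-SSX2 tumors 1 and 3, and its fold change did not pass the test (a log2 fold change of 1.80 with SE 0.66 and adjusted p = 0.862). The 13 angiogenesis inhibitors were divided, with 6 positive and 7 negative fold changes and a median of -0.01. Hypoxia genes had 4 positive and 9 negative fold changes with a median of -0.10. In either list limma called none, and 0 had an unadjusted p under 0.05. Venous genes had 4 positive and 0 negative fold changes with a median of 0.15, capillary genes 4 and 3 with a median of 0.21, and lymphatic genes 5 and 1 with a median of 0.22. Limma called none in these lists either, and 0 had an unadjusted p under 0.05. Of 15 pericyte and smooth muscle genes, 13 had a positive and 2 a negative fold change with a median of 0.52, and 1 was called (Acta2). The medians moved when 1 tumor, or tumor 2 of both genotypes, was left out. That of the capillary list ran from -0.74 without SS18-SSX1 tumor 2 to 0.58 without SS18-SSX1 tumor 3, the inhibitors from -0.21 to 0.08 and the hypoxia genes from -0.16 to 0.06, each changing sign. The tip cell median ran from 0.24 to 0.81, the arterial from 0.48 to 0.93, the venous from 0.11 to 0.38, the lymphatic from 0.12 to 0.49 and the pericyte from 0.44 to 0.74. That of the VEGF and angiopoietin genes outside the members ran from 0.20 to 0.54.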

How the data were processed

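Snap-frozen leg tumors, 6 in all, were sequenced after Ribo-Zero depletion of ribosomal RNA, per the labels' protocols. The submitters' processing notes list Novoalign 2.08.03 and mm10 without saying what each was used for. The authors deposited FPKM values, which are scaled to the length of a gene and the size of a library, in a single table with every tumor in a column of its own. How reads were counted, with which gene models and whether by strand, is a point not given in the sources used here. Overlapping and antisense genes may share reads. Symbols and positions came from GENCODE mouse release 21 on GRCm38, the assembly that mm10 names.

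The test used limma 3.58.1 (R 4.3.3; lmFit and trended eBayes) on FPKM with 1 added, on the log2 scale, which understates the change of low genes. It covered the 13873 of 17312 genes that reached the FPKM minimum of 1 in 3 or more tumors. Fold changes are SS18-SSX2 over SS18-SSX1. P-values are two-sided, adjusted by Benjamini and Hochberg's method across the tested genes, and called under 0.05. The fit was tested on simulated data. Read totals were recovered from FPKM steps, with 78.8% to 80.2% of low values whole within 0.02 reads. They were used for depth and for the read numbers of members. Where the annotated exon length did not give whole reads, the smallest length that did was used. Those read numbers, Sox7, Sox17 and Lyve1 among them, are therefore estimates. Tables and figures used pandas 2.3.3, numpy 2.4.6 and matplotlib 3.10.9 in Python 3.11.15.

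Every member is named. For each other list the rule took the genes called over all genes, otherwise up to 4 with the smallest p and up to 2 with the highest mean. The text gives some of these, and which of them was chosen after their values were seen. Members and lists were chosen with earlier results of these data known. Alternatives covered the pseudocount, low-value filters, scaling, tumor weights, a replicate block and tumors left out.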

Additional observations from a re-analysis of the deposited data

How the results depend on the processing

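The fit was repeated under 16 other settings. No member was called in any of them, and the lowest adjusted p of a member was 0.298, for Eng with weights per tumor. The member median ran from -0.07 to 0.71, and Eng from 0.76 to 1.59 with adjusted p from 0.298 to 1. The number of genes called, 9, became 5 with a pseudocount of 0.1, 16 with weights per tumor, 20 without tumor 2 of both genotypes, and 3 to 11 when 1 tumor was left out. With the replicate block it was 4, and it changed no member's call. Deviations of same-numbered tumors correlated at 0.382, 0.307 and -0.281, against -0.443 to 0.226 for tumors of different numbers. The labels do not say whether the numbers pair the tumors, and these values do not settle it. Of the 32 tested members, 17 changed sign in at least 1 setting and 15 in none, by rounded values. Adgrl4 is among the 15 only because its main fold change rounds to 0. With 1 tumor left out it ran from -0.60 to 0.32, and it was -0.28 without tumor 2 of both genotypes, so its sign was not stable. The cause of the sign changes was not tested. With a pseudocount of 0.1 the values that changed sign were Tek 0.06, Sox17 0.06 and Clec14a 0.05. On the TPM scale they were Tek 0.05, Sox17 0.05 and Clec14a 0.06, and scaled to protein-coding genes Clec14a 0.01. With weights per tumor they were Tek 0.33, Emcn 0.33, Cldn5 0.18, Sox17 0.17, Cd34 0.43 and Clec14a 0.10. Without tumor 2 of both genotypes they were Flt1 0.40, Egfl7 -0.49, Plvap -0.42, Aplnr -0.53 and S1pr1 -0.41. Leaving out 1 tumor at a time gave Pecam1 -0.29 to 0.96, Kdr -0.03 to 1.23, Flt1 -0.35 to 0.15, Tek -0.72 to 0.39, Emcn -0.63 to 0.34, Erg -0.05 to 0.80, Esam -0.07 to 0.75, Cldn5 -0.31 to 0.24, Egfl7 -0.47 to 0.53, Sox17 -0.34 to 0.23, Sox18 -0.08 to 0.99, Plvap -0.67 to 0.71, Cd34 -0.68 to 0.41, Clec14a -0.71 to 0.40, Aplnr -0.88 to 0.80, S1pr1 -0.20 to 0.63 and Angpt1 -0.66 to 0.03. Of the medians of other lists, 16 values in these settings moved beyond the spread between tumors. Low read numbers limit Sox7, Sox17, Mmrn1 and Lyve1. In the tumors numbered 2 they also limit other members. Icam2 had 18 reads in SS18-SSX2 tumor 2 and 16 in SS18-SSX1 tumor 2, and Ecscr had 16 and 23.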
